A study of Mus musculus with 4 samples.

Results

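The genes described here are the small nucleolar RNA (snoRNA) host genes that carry the name Snhg and a number, or Gas5. The rule uses the symbol alone and no measured value, although the family was taken up with earlier results of these data known. It was applied after the gene identifiers had been given their GENCODE M21 symbols. Of the 31053 genes counted, 7 met the rule: Snhg6, Snhg9, Snhg10, Snhg11, Snhg12, Snhg18 and Snhg20. GENCODE M21 holds 15 such genes, and the other 8 (Gas5, Snhg1, Snhg3, Snhg5, Snhg8, Snhg14, Snhg15 and Snhg17) were not analysed here.

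The samples were primary cortical neurons cultured from the embryonic cortex of wild-type C57BL/6J mice. Enhanced crosslinking and immunoprecipitation (eCLIP) ties RNA to protein in the cell, cuts it with RNase I, isolates the complexes by immunoprecipitation (IP) and sequences the RNA in them. Here endogenous RPS2, a component of the small subunit of the ribosome, was isolated. Each group held 2 libraries, RPS2 IP and total RNA, with total RNA drawn from the same samples before the IP, and no transgene or deletion set the groups apart. The labels list ribosomal RNA depletion for the IP and name no treatment in total RNA, whereas the methods place the depletion after library construction and do not limit it to the IP, so an effect of that step and of the pulldown cannot be told apart. The cultures were mixed: floxuridine was used to hold back dividing cells, and markers of glia were present (below). Nothing in the labels says that the replicates came from separate cultures, so the p-values measure only spread between these libraries, which may be technical. In the fit that pairs libraries by number (below), this spread was pooled over all genes, not measured for each gene.

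snoRNAs guide chemical modification of ribosomal RNA in the nucleolus, and small Cajal body RNAs (scaRNAs) do the same for spliceosomal RNAs. C/D box members carry a C box and a D box and guide 2′-O-methylation, and H/ACA members end a few bases after an ACA and guide pseudouridylation. In mammals most are cut from the introns of longer transcripts. Some of those hosts are protein-coding genes, often for ribosome or nucleolar proteins. The Snhg genes are hosts whose spliced RNA has no known conserved protein; several of these RNAs reach the cytoplasm, meet ribosomes and are cleared by nonsense-mediated decay. The question asked of the data was how much of each host RNA came down with RPS2 relative to its amount in total RNA.

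The hosts differed in where their small RNAs lie. A small RNA was called exonic when at least 50% of its bases fell in exons that were counted for the host, on the same strand. Snhg12 and Snhg20 were counted over their whole span, with no intron left out. Snhg12 (chr4:132308623-132311024 of mm10, plus strand, lincRNA) was counted as 1 block of 2402 bases that holds 4 snoRNAs, Snora16a, Snora44, Snora61 and Snord99. Together these make up 470 bases, or 19.6% of its counted bases. Snhg20 (chr11:117076790-117078955, plus strand, lincRNA) was counted as 1 block of 2166 bases and holds the scaRNA Gm26083, with 193 bases or 8.91%. Snhg11 (chr2:158375638-158386145, plus strand) has 4 exon blocks of 8521 bases in all, with the snoRNA Gm25187 in an exon (133 bases, 1.56%) and Gm25129 in an intron. GENCODE M21 lists Snhg11 as protein-coding, while RefSeq lists it as a long non-coding RNA.

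In the other 4 hosts the small RNA is intronic, so its bases were not counted. Snhg6 (chr1:9941959-9944118, minus strand) carries Snord87, Snhg10 (chr12:105030617-105032279, minus strand) carries Scarna13, Snhg18 (chr15:32240565-32244662, minus strand) carries Snord123 and Snhg9 (chr17:24719531-24719965, minus strand) carries Snora78. Their counted lengths are 1146, 529, 1486 and 183 bases. Snhg9 lies against Rps2, the gene of the protein pulled down, and 14 of its exon bases are antisense to Rps2; 127 exon bases of Snhg6 are antisense to Mcmdc2. The reads were counted by strand, and no counted base of the 7 hosts is shared with another gene on the same strand.

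**Figure D1:**
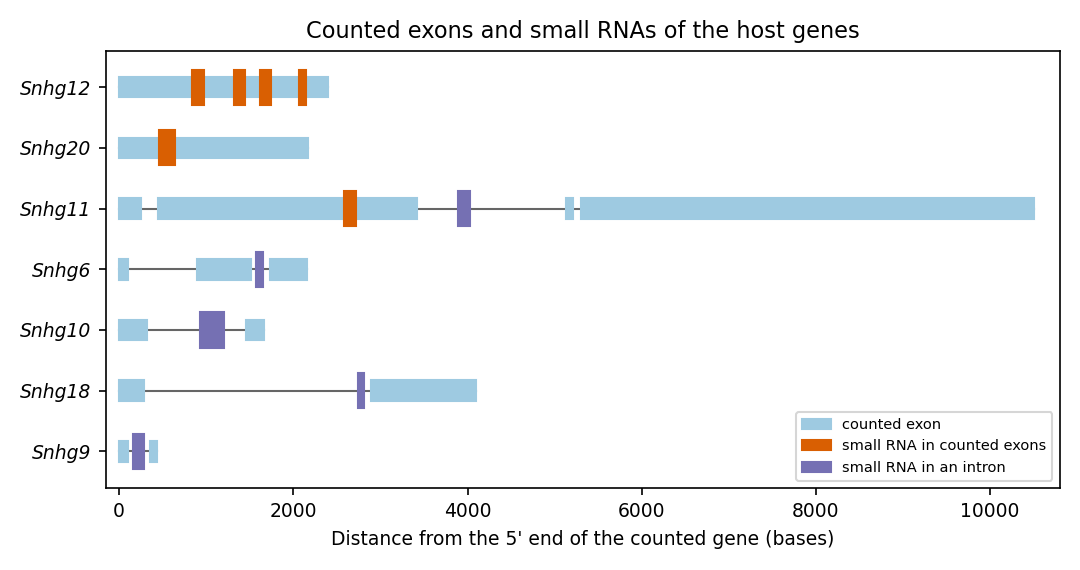
Counted exons and small RNAs of the 7 host genes, to scale, as distance in bases from the 5′ end of each counted gene. Pale blue boxes are counted exons, orange boxes are snoRNAs or scaRNAs inside counted exons and purple boxes are those in introns; Snhg12, with 4 orange boxes, and Snhg20, with 1, have no uncounted intron.

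The 6 small RNAs in counted exons are shown because their bases, whether in the host RNA or in the small RNA itself, enter the host's count. They are from GENCODE M21 (mm10), all on the plus strand and written 5′ to 3′ as DNA. Capitals mark an ACA within the last 6 bases, or a C box (TGATGA) and a D box (CTGA).
Gm26083 of Snhg20 (chr11:117077243-117077435): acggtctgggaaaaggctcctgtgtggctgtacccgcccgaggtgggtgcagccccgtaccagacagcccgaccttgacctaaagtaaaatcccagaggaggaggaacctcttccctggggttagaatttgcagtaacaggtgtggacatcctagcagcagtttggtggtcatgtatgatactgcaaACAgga
Snora16a of Snhg12 (chr4:132309464-132309600): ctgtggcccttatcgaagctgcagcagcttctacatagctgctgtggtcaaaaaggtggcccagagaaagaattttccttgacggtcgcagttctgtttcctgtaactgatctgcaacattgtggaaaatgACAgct
Snora44 of Snhg12 (chr4:132309941-132310069): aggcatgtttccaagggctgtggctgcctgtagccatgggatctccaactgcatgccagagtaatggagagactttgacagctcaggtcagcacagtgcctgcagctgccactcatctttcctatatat
Snora61 of Snhg12 (chr4:132310240-132310369): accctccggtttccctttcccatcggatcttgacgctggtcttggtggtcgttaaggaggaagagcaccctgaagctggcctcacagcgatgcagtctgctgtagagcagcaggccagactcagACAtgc
Snord99 of Snhg12 (chr4:132310691-132310764): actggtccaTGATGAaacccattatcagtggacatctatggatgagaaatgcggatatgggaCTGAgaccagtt
Gm25187 of Snhg11 (chr2:158378222-158378354): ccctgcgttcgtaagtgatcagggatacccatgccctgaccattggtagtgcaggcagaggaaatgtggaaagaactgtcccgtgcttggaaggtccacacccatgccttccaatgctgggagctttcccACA

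Snord99 holds both boxes of the C/D class. Snora16a, Snora61, Gm25187 and Gm26083 hold an ACA at or near the 3′ end, and the annotated Snora44 does not end in one. Gm25187, in the exon of Snhg11, and Gm25129, in its intron, are each 133 bases long and had the same base at 68.4% of 136 aligned columns, the highest identity among the small RNAs of the 7 hosts. The exonic position depends on the transcripts that the annotation includes. At least 1 small RNA lies in an exon of 8 of the 10 Snhg12 transcripts of GENCODE M21. No Snhg12 transcript holds all 4 of its small RNAs in exons, and the most is 3, in Snhg12-204. An exon holds a small RNA in 2 of the 7 Snhg20 transcripts and in 1 of the 5 Snhg11 transcripts. The reads were counted with an annotation that differs from GENCODE M21. There Snhg20 begins at base 117076790, whereas a GENCODE M21 transcript of it begins at 117076008.

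Library totals were 16460545 and 9941486 counts for the IP and 5281196 and 4899718 for total RNA. The 7 hosts together took 3268 and 1390 of these counts in the IP, and 2424 and 1088 of those for total RNA. One non-coding gene that overlaps ribosomal RNA repeats, Gm42418, took between 15.3% and 42.6% of a library, and levels are therefore given as CPM, which scales each library's counts to a common total, here the one set by trimmed mean (TMM) scaling.

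Snhg12, Snhg20 and Snhg11 were the abundant hosts. Snhg12 gave 828 and 137 counts in IP replicates 1 and 2 and 990 and 292 in total RNA replicates 1 and 2, or 59.8, 12.3, 220 and 48.0 CPM in that order. Snhg20 gave 382, 108, 658 and 204 counts, or 27.6, 9.70, 147 and 33.5 CPM. Snhg11, known as a neuronal host RNA, gave 1966, 1061, 740 and 564 counts, or 142, 95.3, 165 and 92.7 CPM. Thus Snhg20 was lower in both IP libraries than in either total RNA library. For Snhg12 the groups overlapped, since IP replicate 1 lay above total RNA replicate 2, and for Snhg11 they overlapped throughout.

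The hosts with intronic small RNAs were scarce. Snhg6 gave 57 and 69 counts in the IP against 19 and 19 in total RNA, or 4.12, 6.20, 4.23 and 3.12 CPM. Snhg10 gave 17, 10, 8 and 7 counts, or 1.23, 0.898, 1.78 and 1.15 CPM. Both overlapped between groups. Snhg18 had 9, 2, 4 and 2 counts and Snhg9 had 9, 3, 5 and 0, and neither passed the filter on low counts, so 5 of the 7 hosts were tested. The 0 of Snhg9 in total RNA replicate 2 allows up to 0.493 CPM (3 counts), for counting error only.

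**Figure D2:**
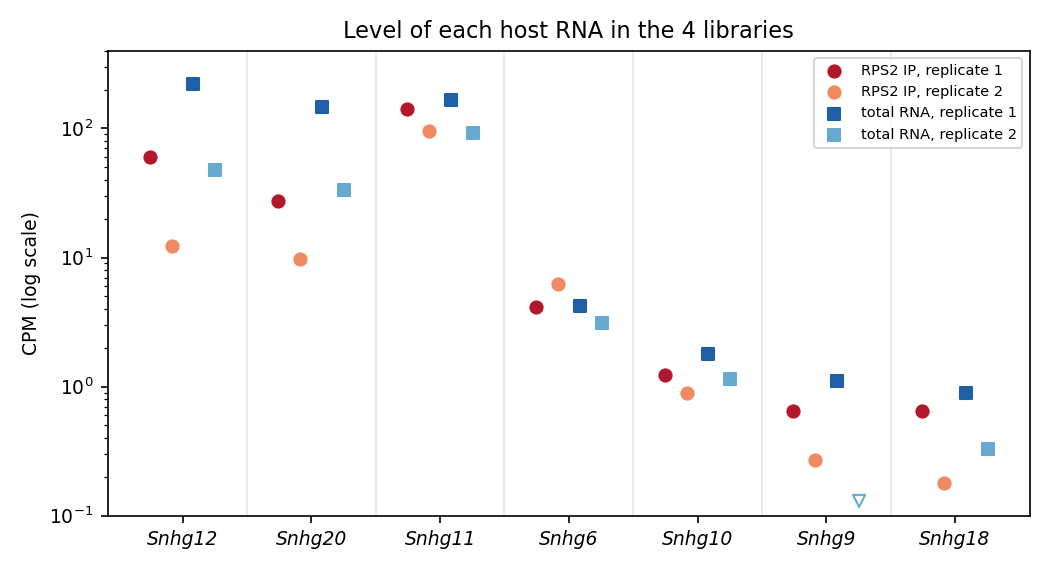
Level of each host RNA in each library, in CPM on a log scale; circles are RPS2 IP and squares total RNA, darker for replicate 1. Snhg12 runs from 12.3 to 220 CPM and Snhg20 from 9.70 to 147 CPM, with replicate 2 below replicate 1 in both groups, and the open triangle at the lower edge marks the library in which Snhg9 had 0 counts.

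Levels of different hosts were compared per kilobase of counted exon. In total RNA Snhg12 stood at 55.9 ± 50.8 CPM per kilobase (SD, n = 2), Snhg20 at 41.6 ± 36.9, Snhg11 at 15.1 ± 5.98, Snhg6 at 3.21 ± 0.68, Snhg9 at 3.04 ± 4.30, Snhg10 at 2.77 ± 0.84 and Snhg18 at 0.41 ± 0.27. The median over all tested genes was 3.67 CPM per kilobase. Because the libraries of a group were so far apart, neighbours in this order did not separate: in total RNA replicate 2 Snhg12 stood at 20.0, Snhg20 at 15.5 and Snhg11 at 10.9 CPM per kilobase. The order also changed in the IP. In IP replicate 1 the levels were 24.9 for Snhg12, 16.7 for Snhg11 and 12.7 for Snhg20, and in IP replicate 2 Snhg11 was the highest at 11.2, with Snhg12 at 5.12 and Snhg20 at 4.48 CPM per kilobase. Snhg11 thus made up 60.2% and 76.3% of the counts of the 7 hosts in the IP, against 30.5% and 51.8% in total RNA.

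Within each replicate number, Snhg12 and Snhg20 were lower in the IP than in the total RNA of the same number. For Snhg12 the log2 ratio of IP to total RNA was -1.88 in pair 1 (95% counting interval -2.02 to -1.75) and -1.94 in pair 2 (-2.27 to -1.67). For Snhg20 it was -2.40 (-2.59 to -2.22) and -1.77 (-2.14 to -1.45). The ratios of Snhg12 overlapped between the pairs, whereas those of Snhg20 did not, so its pairs differed by more than counting error. The size of the shortfall was between 3.40-fold and 5.27-fold in these 4 values. Of the 5 hosts tested 3 had a ratio under 0 in both pairs (Snhg12, Snhg20 and Snhg10), as did 32.2% of all genes tested, and 0 of 5 had one over 0 in both, against 34.3% of all genes.

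The other hosts had ratios closer to 0, or intervals that spanned it, apart from Snhg6 in pair 2. Snhg11 had log2 ratios of -0.21 (-0.34 to -0.09) and 0.04 (-0.11 to 0.19). Snhg6 had -0.04 (-0.81 to 0.79) and 0.94 (0.24 to 1.80), and so was higher in the IP in pair 2 alone. Snhg10 had -0.46 (-1.83 to 0.88) and -0.29 (-1.90 to 1.27), intervals that span both directions. For Snhg18 the ratio in pair 1 was -0.35 (-2.29 to 1.70). For Snhg18 in pair 2 and Snhg9 in pair 2 no ratio is given, as both libraries held 3 counts or fewer, and for Snhg9 in pair 1 it was -0.61 (-2.51 to 1.15). All intervals cover counting error only, as no removal of PCR duplicates was named.

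Tested without pairing, no host was called. With edgeR's quasi-likelihood test on the 2 IP against the 2 total RNA libraries the adjusted p was 1 for each of the 5 hosts, and 0 of 12336 genes passed. At an unadjusted p under 0.05 there were 349 genes (2.83%), Snhg20 among them (log2 fold change -2.26 ± 0.82 SE, unadjusted p = 0.0375). Snhg12 had a log2 fold change of -1.89 ± 0.97 (unadjusted p = 0.104). DESeq2 without pairing called 5 genes (0.0405%) and no host. The 2 groups did not overlap for 31.8% of the genes tested, with the IP below for 14.9%, beside 1 host of 5, Snhg20.

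With the replicate number as a block, which compares each IP with the total RNA of the same number (an assumed pairing), Snhg12 and Snhg20 were lower in the IP. The test then called 931 genes lower (7.55%) and 818 higher (6.63%). Its prior degrees of freedom were infinite, so a gene's own spread had no weight in its SE or p-value. Snhg20 had a log2 fold change of -2.18 ± 0.13 (SE; adjusted p = 1.26e-57), or 4.53-fold lower, which was the 18th lowest value of the 12336 genes. Snhg12 had -1.91 ± 0.12 (adjusted p = 5.24e-54), or 3.76-fold lower, the 23rd lowest value. Snhg11 had -0.09 ± 0.10 (adjusted p = 0.637), Snhg6 0.50 ± 0.37 (adjusted p = 0.415) and Snhg10 -0.45 ± 0.61 (adjusted p = 0.698). For Snhg10 the standard error was larger than that of Snhg12, 0.61 against 0.12, so a change there had to be larger to be called.

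Split by the position of the small RNA, 2 of the 3 hosts with one in counted exons were lower and none was higher. Of all genes tested 7.55% were lower and 6.63% higher. The median of the 3 hosts was -1.91 on the log2 scale under the block (-1.88 in pair 1, -1.77 in pair 2). The third, Snhg11, has 1.56% of its counted bases in a small RNA. Of the 4 hosts whose small RNA is intronic 2 were tested, neither was called, and their median was 0.02 (-0.25 in pair 1 and 0.32 in pair 2). The median over all genes tested was 0.01. A count per gene cannot say whether the reads came from the small RNA or from the rest of the host.

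**Figure D3:**
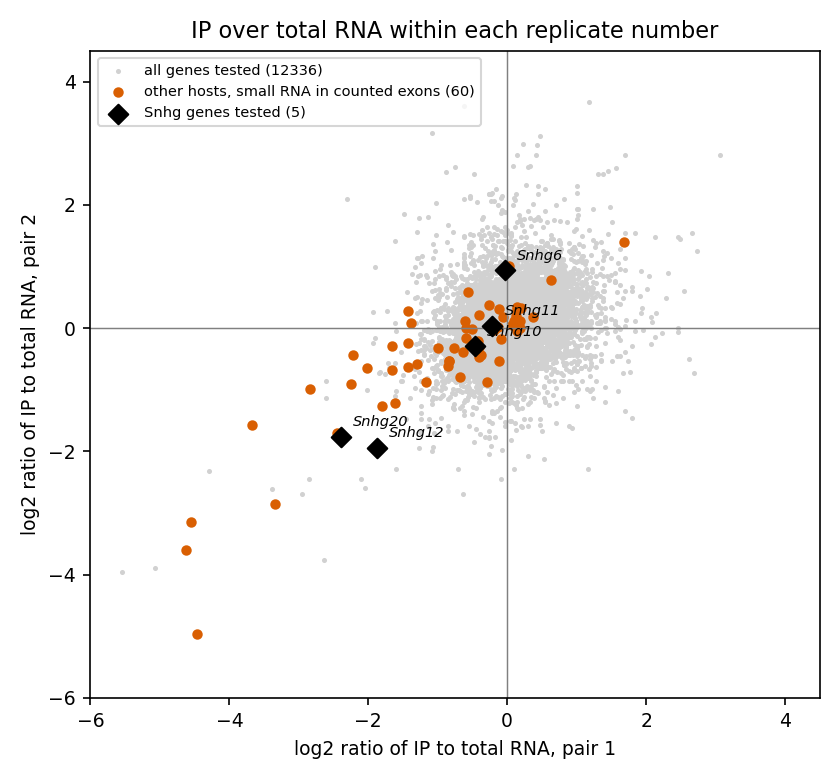
Log2 ratio of RPS2 IP to total RNA in pair 1 (horizontal) against pair 2 (vertical) for the 12336 genes tested (grey), the 60 other genes with a small RNA in counted exons (orange) and the 5 Snhg genes tested (black diamonds). Snhg12 and Snhg20 lie below 0 on both axes among the low orange points, and Snhg11, Snhg10 and Snhg6 lie within the grey cloud.

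Both low hosts also differed between replicates. Snhg12 was 4.58-fold lower in total RNA replicate 2 than in replicate 1 and 4.79-fold lower in the IP. Snhg20 was 4.35-fold lower in total RNA and 2.80-fold lower in the IP. In total RNA only 1.70% of the tested genes fell more steeply from replicate 1 to replicate 2 than Snhg12, and 1.92% more steeply than Snhg20. Snhg11 differed less, by 1.78-fold in total RNA and 1.49-fold in the IP. The 60 other genes with a small RNA in counted exons had a median log2 difference (replicate 2 minus replicate 1) of -0.70 in total RNA and -0.13 in the IP, and the 182 with one only in introns had 0.10 and -0.01.

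The summed markers of astrocytes and of microglia were also lower in replicate 2. The 5 astrocyte markers (Gfap, Aqp4, Slc1a3, Aldh1l1 and Aldoc) summed to 1861 and 633 CPM in IP replicates 1 and 2 and to 1573 and 605 CPM in total RNA. The 5 microglia markers (C1qa, C1qb, Cx3cr1, Csf1r and P2ry12) summed to 84.6 and 7.28 CPM for the IP, against 88.0 and 5.92 CPM for total RNA. The 8 neuron markers ranged from 4064 to 4591 CPM over the 4 libraries, the 5 markers of the oligodendrocyte lineage from 48.3 to 60.8 CPM (of these Mbp was higher in replicate 2, at 44.3 against 35.6 CPM in the IP), and the 3 endothelial markers from 0.445 to 1.59 CPM. Of the tested markers of these lists 3 were called with the block, each higher in the IP. These were 2 of 5 astrocyte and 1 of 8 neuron markers, and of all genes tested 6.63% were higher. None of the 4 tested microglia or 3 tested oligodendrocyte lineage markers was called, and no endothelial marker was tested. The part of glial RNA in the replicate difference of Snhg12 and Snhg20 was not tested, and in such cultures fewer cells of a type and less RNA per cell cannot be told apart.

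Among the other tested genes with a small RNA in counted exons, 32 of 60 (53.3%) were lower with the block and 2 were higher, with a median log2 fold change of -0.40. Of all genes tested 7.55% were lower. Among the 182 with a small RNA only in introns, 13 (7.14%) were lower and 6 higher, with a median of 0.04, so their share lower was near that of all genes. The 3 lowest exonic hosts were Gm29362 at -4.68, a lincRNA of 133 bases that is covered whole by Mir3068, Rab26os at -4.67, which holds Snord60, and Rpl13a at -3.99, a gene for a protein of the large ribosomal subunit that holds Snord33. The 3 highest were Phb2, which encodes a prohibitin, at 1.54, Rps2 at 0.70 ± 0.10 (adjusted p = 4.75e-10) and Zmpste24, which encodes a prelamin A protease, at 0.49 (adjusted p = 0.182). Snhg20 and Snhg12 ranked sixth and ninth from the lowest of all 63 exonic hosts.

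The non-coding genes of this kind were few. All 5 other tested non-coding hosts with an exonic small RNA were lower with the block, from -4.68 for Gm29362 to -1.25 for 1810032O08Rik, with a median of -3.41. That median is the value of Gm23925, a lincRNA of 132 bases. A small RNA of the same name covers 99.2% of it, and Gm29362 is covered whole. These are therefore small RNA loci more than longer host RNAs, unlike Snhg12 and Snhg20. For 2 of the 5, Gm29362 (Mir3068) and 2900076A07Rik (Mir1839, at -3.29), the small RNA carries a microRNA name although GENCODE M21 types it as a snoRNA or scaRNA. Rab26os gave 61 and 3 counts in the IP against 458 and 93 in total RNA. 1810032O08Rik, singled out after its values were seen, is listed by RefSeq as Snhg16 and so belongs to the family under its newer name. It gave 32, 32, 35 and 29 counts, with log2 ratios of -1.66 and -0.69 and an adjusted p of 0.0116 with the block. Of 55 tested protein-coding hosts with an exonic small RNA 27 were lower and 2 higher, with a median of -0.36. Of the tested non-coding genes that hold no small RNA, 12 of 162 were lower (7.41%, near the 7.55% of all genes tested) and 10 higher, with a median of 0.22.

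The share of counted bases that lie in small RNAs went with the fold change across the exonic hosts. Over all 63 the Spearman correlation of this share with the blocked log2 fold change was -0.51 (-0.52 for the ratios of pair 1 and -0.41 for those of pair 2), and it was -0.47 over the 60 hosts that are not Snhg genes. Pearson's r was -0.58 over the 63, and -0.47 without the 2 hosts farthest from the median share, which are covered almost whole by a small RNA. These are correlations across genes from the same 4 libraries, and genes are not independent replicates. With bounds set after the values were known, the 12 other hosts with a share of 8% or more, the range of Snhg12 and Snhg20, had a median of -1.35, with 10 lower and 0 higher. The 15 other hosts under 2%, the range of Snhg11, had a median of -0.08, with 6 lower and 0 higher, and the 33 between had a median of -0.39, with 16 lower and 2 higher. Shorter hosts were lower too: over the 60 the Spearman correlation of counted length with the log2 fold change was 0.31. Like Snhg12 and Snhg20, 5 of the 60 had their whole span counted. These 5 include Gm29362 and Gm23925, which are covered almost whole by a small RNA. Of these 5, 4 were lower, against 7.55% of all genes tested. Their values ran from -4.68 to -0.05, and the median of the 5, -3.41, was the value of Gm23925. These traits were not tested against each other.

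**Figure D4:**
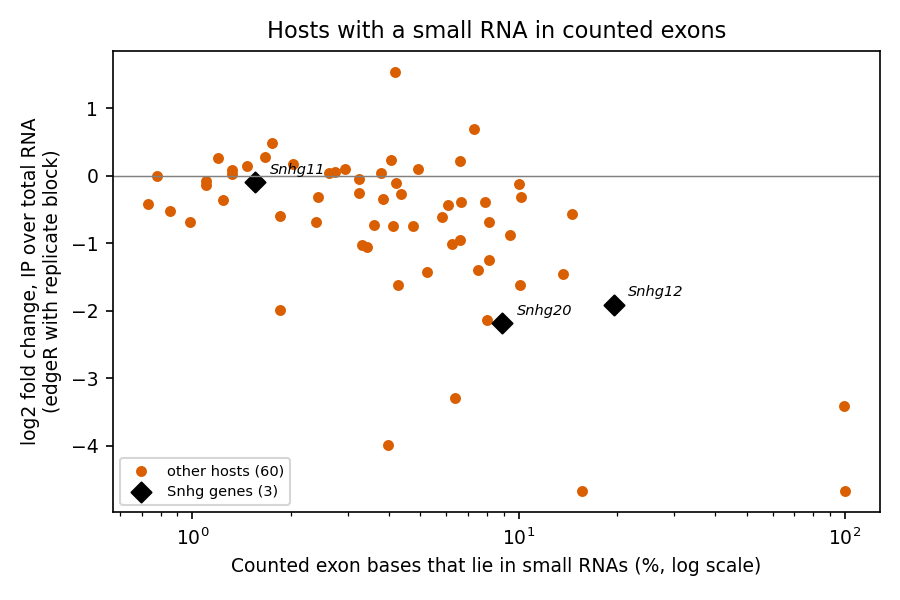
Log2 fold change of RPS2 IP over total RNA with the replicate block (vertical) against the percent of counted exon bases that lie in small RNAs (horizontal, log scale) for the 63 tested genes with a small RNA in counted exons. Orange points are the 60 other hosts and black diamonds the 3 Snhg genes: Snhg11 at 1.56% lies near 0, and Snhg20 at 8.91% and Snhg12 at 19.6% lie near -2.

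The proteins that bind snoRNAs were mostly not called. Of the 17 genes for core snoRNP proteins and their assembly factors 3 were lower with the block (17.6%, against 7.55% of all genes tested) and 0 higher, with a median log2 fold change of -0.06. The 3 lower ones, named because they were called, were Nop56, a core C/D box protein, at -2.14, Naf1, an H/ACA assembly factor, at -0.91, and Nolc1, a nucleolar phosphoprotein, at -0.55. Pih1d1, the third lowest, had -0.63 (adjusted p = 0.0532). Nop56 is itself an exonic host, with 4 snoRNAs in its counted exons. The 3 highest were Shq1, an H/ACA assembly factor, at 0.92 (adjusted p = 0.0835), Nop10 at 0.52 (adjusted p = 0.0513) and Gar1 at 0.52 (adjusted p = 0.326), the last pair being core H/ACA proteins. Of 17 tested factors of nonsense-mediated decay 3 (17.6%) were lower and 0 higher, with a median of -0.07: Dhx34 at -0.46, Smg9 at -0.40 and Smg5 at -0.34, named because they were called. The lowest value of the list was that of Upf3b, at -0.80 (adjusted p = 0.166), and the 3 highest were Rbm8a at 0.38 (adjusted p = 0.378), Xrn1 at 0.35 (adjusted p = 0.187) and Upf3a at 0.26 (adjusted p = 0.607).

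Of the other long non-coding RNAs a few were higher in the IP. The list named 24, of which the count tables held 15 and the test kept 13, with 3 (23.1%) higher in the IP with the block, 0 lower and a median of 0.49. Of all genes tested 6.63% were higher. Those called were Miat at 0.80 (adjusted p = 5.76e-08), Malat1, a nuclear speckle RNA, at 0.58 (adjusted p = 7.67e-07) and Kcnq1ot1, which silences its imprinted domain, at 0.49 (adjusted p = 0.0434). The highest value was that of Epb41l4aos, which holds a small RNA in an intron, at 1.01 (adjusted p = 0.253), Pantr1 was at 0.62 (adjusted p = 0.153), and Ftx was the lowest at -1.23 (adjusted p = 0.0764). The mitochondrially encoded mRNAs, which are read by mitochondrial ribosomes that lack RPS2, give a background. Of 7 tested 6 were lower, against 7.55% of all genes tested, and 0 higher, with a median of -0.99. The lowest was mt-Nd1 at -1.36 ± 0.12. Snhg12 and Snhg20 thus had blocked fold changes below that of each mitochondrial mRNA tested, a comparison given by values alone. In pair 2 they did not separate from mt-Nd1. Its log2 ratio of -1.69 lay within the counting intervals of Snhg12 (-2.27 to -1.67) and Snhg20 (-2.14 to -1.45).

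The 5′ ends were read from RefSeq promoters. Growth-regulated hosts of snoRNAs are known for a 5′ terminal oligopyrimidine start, a C followed by a run of pyrimidines. Of the 7 hosts 6 had an entry, and 0 of the 6 had a C followed by at least 4 pyrimidines at the annotated start, against 2.51% of 32851 promoters. Snhg12 and Snhg18 do begin with a run of 6 pyrimidines, whose first base is T. Over all Snhg and Gas5 promoters in the RefSeq table a C with at least 4 pyrimidines stood at 3 of 18 starts. These counts describe the letters at the annotated start only.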

How the data were processed

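The deposited files hold raw counts of reads per gene, which the authors made by trimming with cutadapt, aligning end to end to mm10 with STAR (up to 10 loci per read) and counting with featureCounts 1.5.3, by strand and without reads at several loci or in several genes. Reads shared by near-identical copies were therefore not counted, which can lower the counts of snoRNA hosts whose small RNAs have such copies. The effect of this on the hosts was not tested. The files also give the deposited length of each gene in bases. Identifiers were matched to GENCODE M21, on the same build, for 30934 of 31053 genes, and the tables used here hold 0 genes typed as small RNA.

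The counts were fitted with edgeR 4.0.16 in R 4.3.3 (filterByExpr, TMM, glmQLFit and glmQLFTest, two-sided, Benjamini-Hochberg over 12336 genes, threshold 0.05). The fit had no block. The study's methods took total RNA from the samples before the IP, but neither they nor the labels match the libraries by number. Pairing by number is therefore an assumption. Deviations of same-numbered libraries from the group means correlated at 0.73, so the fit with the replicate block is printed beside the fit without one. Within-pair ratios used TMM-scaled CPM with a prior count of 2, and their 95% intervals are exact binomial on the 2 counts. Alternatives were other scalings, filters, DESeq2 1.42.0, limma-voom 3.58.1, thinning, a GC content and length offset and leaving out libraries. The test scripts were first tested on simulated data. Library totals ran from 4899718 to 16460545 counts.

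The host family and the lists were chosen with earlier results of these data known. Every host in the tables is named, and from each other list at most the 3 highest and the 3 lowest genes by the blocked fold change, plus, after their values were seen, the called genes of lists with few calls.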

Additional observations from a re-analysis of the deposited data

How the results depend on the processing

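The calls depended mostly on the replicate block. With it Snhg12 and Snhg20 were called lower in each of the 10 blocked fits, with log2 fold changes of -2.10 to -1.89 and -2.28 to -2.15. Thus 2 hosts were called lower, against 0 in the unblocked edgeR fit with the low-count filter. No blocked fit called a host higher. The largest adjusted p, from the blocked edgeR fit after thinning to the smallest total, was 2.22e-10 for Snhg12 and 1.12e-09 for Snhg20. Over all genes the blocked fits called 818 higher and 931 lower with TMM, 283 and 878 by library size alone, 721 and 996 with median-ratio size factors, 769 and 699 with no low-count filter, 878 and 926 with at least 10 counts in every library, 158 and 382 with DESeq2 (which left 7653 adjusted p missing), 685 and 927 with limma-voom, 820 and 947 without Gm42418, 549 and 721 after thinning to the smallest total, and 505 and 338 with the GC content and length offset. Without the block 0 genes were called lower, against 5 with DESeq2 and 14 when low counts were kept. These 14 included 1 host, Snhg20 (adjusted p = 0.0083).

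The median of the 3 hosts with an exonic small RNA was -1.89 without the block. With the block it was -1.98 by library size alone, -1.99 after thinning, -2.10 with the offset, and -2.05 over the 2 left without Snhg11, the one annotated as protein-coding; leaving out Snhg11 by name was added after seeing the data. The median of the hosts with an intronic small RNA was 0.03 without the block and 0.02 with it. The other blocked fits put it between -0.32 (GC content and length offset) and 0.67 (thinning), with 0.51 at a minimum of 10 counts in every library. The values 0.67 and 0.51 are those of Snhg6 alone, as Snhg10 did not pass the filter there. The unblocked fit with no low-count filter put the median at -0.26, over 4 hosts.

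Without the block, leaving out 1 library at a time put the exonic median between -3.21 and -0.41, the intronic median between -0.23 and 0.76, and the genes called lower between 1 and 8. Without total RNA replicate 1 Snhg12 had -0.41 and Snhg20 -0.84, and without IP replicate 1 they had -3.45 and -3.21. Snhg11 ran from -0.48 to 0.36 and changed sign when IP replicate 2 (0.14) or total RNA replicate 1 (0.36) was left out, and was not called. Among the pair ratios, library size alone gave -2.10 for Snhg12 and -0.43 for Snhg10 in pair 2. The cause of these changes was not tested.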
